A study of Drosophila melanogaster with 31 samples.

Results

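Heads without ectopic eye outgrowths (EEOs) from the KrIf-1 cross were compared with mod07570/+ heads, 3 libraries against 3. These 6 libraries are part of 31 samples in the series, of which 21 are RNA libraries and 12 are from heads. They were chosen by tissue and by the group named in their labels. The study asked whether modulo, which encodes the fly homolog of Nucleolin, restrains transposons and keeps development robust.

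Heads without EEO came from a cross in which mod07570/L8 females were mated with KrIf-1 males. In the labels these libraries carry the mothers' genotype, and which mod allele the offspring inherited is not given. KrIf-1 is a gain-of-function allele of Krüppel that disturbs the eye, and it entered this cross through the fathers. Whether every offspring inherited it is not stated. The mod07570/+ heads carried a hypomorphic P-element insertion in mod over a wild-type copy, with no KrIf-1 allele. The remaining 6 head libraries, 3 of heads with EEO from the same cross and 3 of mod07570/L8 heads, which combine the insertion with the amorphic deletion modL8, served as a second comparison that shares no library with the first. The labels state neither the sex nor the age of the flies. Genotype, cross, mothers' genotype and sex therefore change together between the groups, and their parts in any difference cannot be told apart.

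In Drosophila the number of X chromosomes sets the sex of each somatic cell through Sex-lethal (Sxl), a splicing factor active in females that acts on transformer (tra) and on msl-2. Males, in which Msl2 is made, assemble the MSL complex with the roX RNAs on the X chromosome and raise its transcription. Doublesex and Fruitless, at the end of the pathway, shape sex-specific tissues, and the fat body of females, including that of the head, secretes yolk proteins.

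Total estimated counts per library were 14912954 to 22695680 in heads without EEO (median 17417969) and 12820086 to 14118280 in mod07570/+ heads (median 13439480). Levels are given as cpm, the counts of a gene scaled to a common library total, and ± is the SD over 3 libraries unless a standard error (SE) is named. Rhodopsin ninaE RNA was at 8775 to 16345 cpm in all 6 libraries, so photoreceptor RNA was abundant in each. Single mod07570/+ libraries stood apart. Replicate 2 held ovarian germline RNA, with osk at 216 cpm against 0.212 and 3.35 in replicates 1 and 3, and replicate 3 held muscle RNA, with Mhc at 3129 cpm against 1355 and 1304. The study describes its RNA libraries as biological replicates, without saying whether those of heads came from separate crosses, so p-values measure the spread between these libraries.

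The RNAs by which the sexes of the groups were read differed without overlap, and they are given as a description because they chose the comparison. roX1, a non-coding RNA of the MSL complex, was at 1059, 1066 and 1081 cpm in heads without EEO and at 2.97, 3.05 and 3.51 cpm in mod07570/+ heads. roX2, its partner RNA, was at 33.7, 28.8 and 29.3 cpm against 0, 0.372 and 0.234 cpm. Yp1, a yolk protein RNA, was at 1.21, 4.19 and 0.969 cpm in heads without EEO and at 57495, 27338 and 30329 cpm in mod07570/+ heads. Yp2 was at 1.27 to 4.08 cpm against 19192 to 41204 cpm, and Yp3 at 8.02 to 13.6 cpm against 27153 to 59662 cpm. The heads without EEO thus had the roX RNAs of males and nearly no yolk protein RNA, and the mod07570/+ heads had the reverse. Heads with EEO had roX1 at 666 to 1152 cpm and mod07570/L8 heads at 3.13 to 4.55 cpm, so the second comparison was ordered alike.

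**Figure D1:**
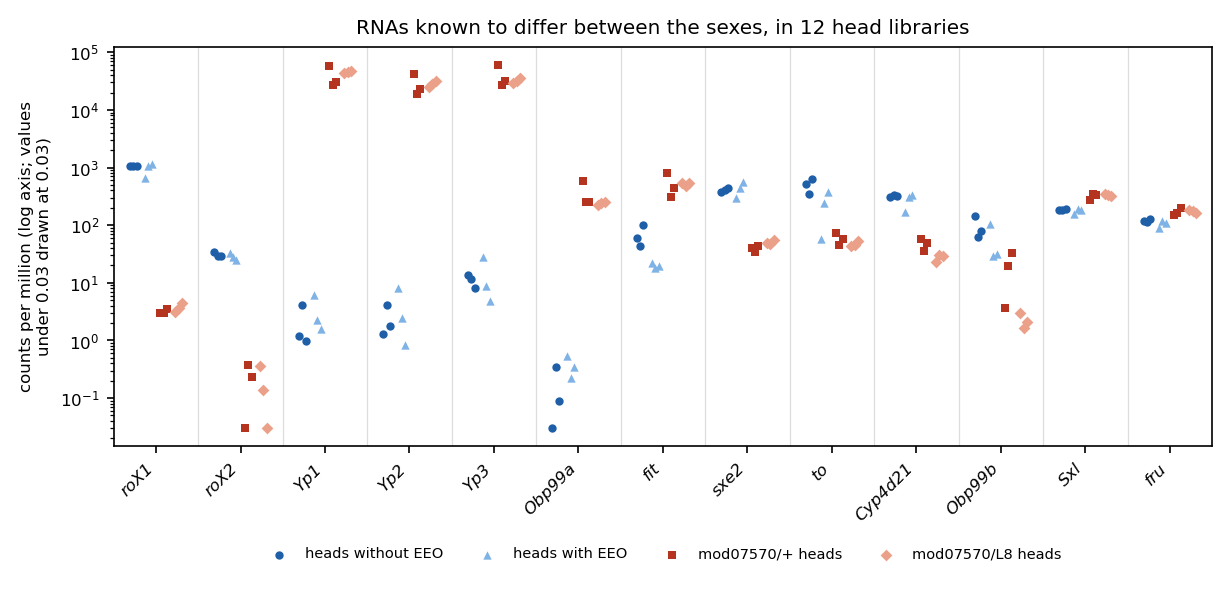
Counts scaled to a common total (cpm) on a log axis for RNAs known to differ between the sexes, with a point for each of the 12 head libraries and a colour for each group. Heads with and without EEO lie together and apart from mod07570/+ and mod07570/L8 heads at roX1, roX2, the yolk protein RNAs, Obp99a, sxe2 and Sxl.

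Yolk protein RNA took 15.8, 7.37 and 8.56% of all counts in mod07570/+ heads and 0.00108 to 0.00197% in heads without EEO. Every cpm value of a mod07570/+ library is lowered by that share. The tests therefore rest on TMM scaling, which leaves out extreme genes, and total-count scaling is given beside counts that it moves. Replacing TMM by total counts moved the median log2 fold change of all features from 0.02 to 0.19. Under it 79.4% of the calls were higher in heads without EEO, against 60.1% under TMM and 47.7% with DESeq2.

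Of 10084 genes with at least 1 cpm in at least 3 libraries, 1530 (15.2%) were higher and 977 (9.69%) were lower in heads without EEO, at an edgeR adjusted p under 0.05. Changes of over 2-fold numbered 327 in the higher and 336 in the lower direction. Leaving out heads without EEO replicate 1, 2 or 3 left 293, 321 or 331 genes higher and 275, 339 or 325 lower, whereas leaving out mod07570/+ replicate 1, 2 or 3 left 1199, 1492 or 1837 higher and 833, 1582 or 1141 lower.

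**Figure D2:**
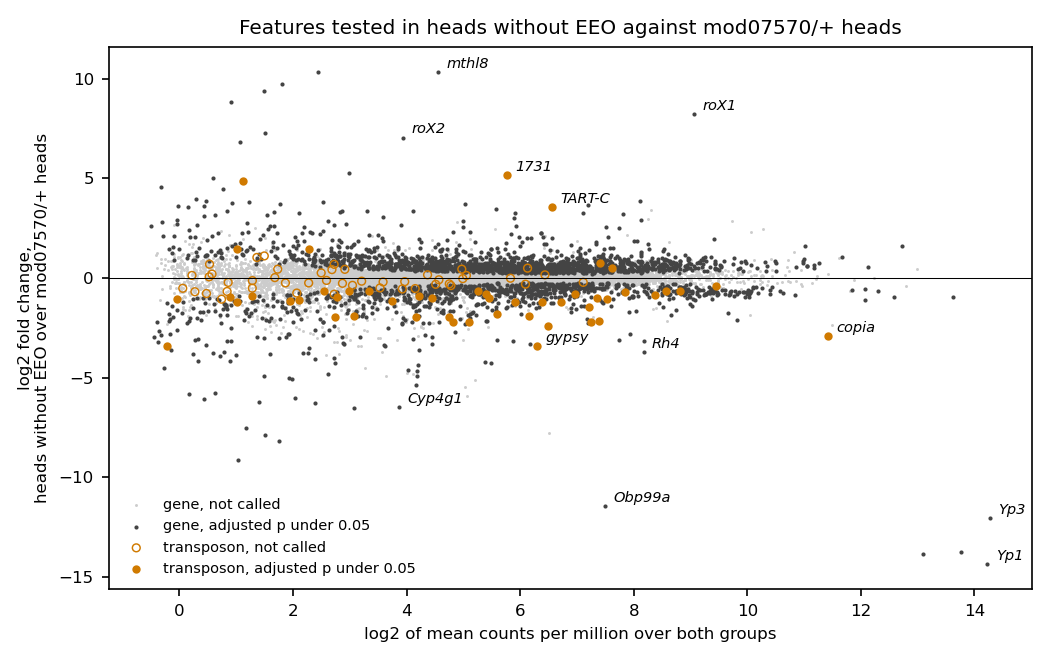
Log2 fold change of heads without EEO over mod07570/+ heads against the log2 of the mean cpm over both groups, with a point for each tested gene (grey or black) or transposon (orange). The yolk protein RNAs lie at the lower right, far below the other abundant RNAs, and roX1 lies at the upper right.

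Of 8 dosage compensation genes 3 were higher and none was lower, but 2 of the 3 are the roX RNAs that chose the comparison. Among the other 6, a single gene was higher, where 15.2% of all genes were. It was msl-2, which encodes the limiting protein of the MSL complex. Its RNA was at 48.8, 51.2 and 50.8 cpm in heads without EEO and at 25.1, 28.1 and 29.3 cpm in mod07570/+ heads. The groups did not overlap, and the log2 fold change was 0.70 ± 0.09 (SE, edgeR adjusted p = 0.0042). The sign turned when only fragments that map to a single transcript were counted (log2 fold change -0.41, edgeR adjusted p = 0.46). Such counts leave out fragments shared by transcripts of the same gene. The other alternatives that gave a value for msl-2 kept its call, at log2 fold changes of 0.59 to 0.87. The helicase gene mle was at 112 to 116 cpm against 77.7 to 105 cpm, and its log2 fold change of 0.15 ± 0.09 (SE) did not pass the test (edgeR adjusted p = 0.25).

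Of 10 sex determination genes tested, none was higher and 2 were lower, Sxl and fru, where 15.2% and 9.69% of all genes were higher and lower. Sxl was at 183, 184 and 189 cpm in heads without EEO against 273, 348 and 338 cpm in mod07570/+ heads, a log2 fold change of -0.96 ± 0.07 (SE, edgeR adjusted p = 0.00087). fru, which encodes the transcription factors of male courtship circuits, was at 119, 115 and 127 cpm against 152, 164 and 196 cpm, with a log2 fold change of -0.68 ± 0.10 (SE, edgeR adjusted p = 0.0066). For both the groups did not overlap. dsx was at 73.5 to 82.7 cpm against 47.7 to 54.8 cpm, and its log2 fold change of 0.40 ± 0.13 (SE) missed the threshold (edgeR adjusted p = 0.072), although it was called under total-count scaling (log2 fold change 0.59, edgeR adjusted p = 0.0082). tra was at 8.61 to 9.72 cpm against 9.07 to 13.7 cpm (log2 fold change -0.46 ± 0.14 SE, edgeR adjusted p = 0.056). Summing transcripts to genes hides the sex-specific splicing of these RNAs, which was not tested.

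All 6 head fat body genes known to differ between the sexes were called, 4 higher and 2 lower, against 15.2% and 9.69% of all genes. Obp99a, an odorant-binding protein gene, was at 0, 0.344 and 0.0881 cpm in heads without EEO and at 584, 248 and 250.4 cpm in mod07570/+ heads. Its log2 fold change was -11.43 ± 0.82 (SE, edgeR adjusted p = 0.0008), the largest outside the yolk proteins and the RNA antisense to Yp1. fit, whose product signals satiety after a protein meal, was at 59.7, 42.7 and 102 cpm against 791, 314 and 436 cpm (log2 fold change -3.14 ± 0.51 SE, edgeR adjusted p = 0.0087).

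The higher members were sxe2, takeout (to), Cyp4d21 and Obp99b. sxe2, a lipase-like gene, was at 377, 414 and 439 cpm in heads without EEO against 39.7, 34.7 and 42.9 cpm in mod07570/+ heads (log2 fold change 3.21 ± 0.15 SE, edgeR adjusted p = 0.00022). to, a secreted carrier protein of the male head fat body that acts in courtship, was at 514, 351 and 642 cpm against 73.0, 44.8 and 57.6 cpm (log2 fold change 2.90 ± 0.32 SE, edgeR adjusted p = 0.0029). Cyp4d21, a cytochrome P450 of the same tissue, was at 304, 336 and 316 cpm against 56.6, 35.0 and 48.1 cpm (log2 fold change 2.57 ± 0.24 SE, edgeR adjusted p = 0.0018). Obp99b varied most between libraries, at 144, 63.2 and 79.9 cpm against 3.61, 19.2 and 33.1 cpm, with a log2 fold change of 2.24 ± 0.66 (SE, edgeR adjusted p = 0.048). Its call was lost without mod07570/+ replicate 2 (edgeR adjusted p = 0.094). The groups did not overlap in any of the 6 genes, against 38.5% of all genes without overlap and higher and 9.74% without overlap and lower. Of 5 general fat body and hemocyte markers tested, only Apoltp, a lipoprotein gene, was called (333 to 448 cpm against 536 to 857 cpm, log2 fold change -1.08 ± 0.24 SE, edgeR adjusted p = 0.021). Without mod07570/+ replicate 2, 2 of the 5 were lower, and in heads with EEO against mod07570/L8 heads 4 of the 5 were lower, with a median log2 fold change of -0.98. Of all genes 9.36% were lower in that second comparison.

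Besides the yolk proteins and Obp99a, the 15 genes with the largest falls whose libraries did not overlap held genes of several kinds. asRNA:CR45601, at 0.134 to 2.87 cpm against 12316 to 25866 cpm, lies inside Yp1 on the opposite strand in the RefSeq Release 6 annotation, and counting is not stated to use strand, so its reads cannot be told apart from those of Yp1. CG31465 (1.14 to 3.22 cpm against 32.6 to 37.0 cpm) and asRNA:CR45046 (3.22 to 7.49 cpm against 76.4 to 99.8 cpm) overlap each other on chromosome arm 3R and are likewise uncertain as separate genes. In mod07570/L8 heads both were lower than in every mod07570/+ library, at 19.5 to 31.5 and 57.0 to 76.3 cpm. They were still above every library of heads without EEO.

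Other falls set mod07570/+ heads apart from all 3 other head groups. Bace, an aspartyl protease gene, was at 9.20 to 11.3 cpm in mod07570/+ heads and at most at 0.172 cpm in heads without EEO, with 0.133 to 0.589 cpm in heads with EEO and 0.0697 to 0.146 cpm in mod07570/L8 heads. The serine protease gene CG18180 was at 5.81, 64.4 and 34.7 cpm in mod07570/+ heads against 0.115 to 1.88 cpm, and CG12374 at 17.5 to 38.5 cpm against 0.0574 to 2.21 cpm. Cyp4g1, the oenocyte P450 that completes hydrocarbon synthesis, was at 13.9, 47.9 and 24.3 cpm in mod07570/+ heads against 0.0671 to 0.689 cpm. In mod07570/L8 heads it was at most at 0.147 cpm, and heads with EEO replicate 3 alone had 11.7 cpm. CG7567 was at 33.3 to 36.8 cpm in mod07570/+ heads and at most at 3.02 cpm in the other head libraries. CG10814 was at 4.06 to 40.0 cpm against 0.115 to 0.335 cpm, with up to 3.42 cpm in mod07570/L8 heads, while dy, a zona pellucida domain protein of the wing cuticle, was at 0.514 to 1.75 cpm in mod07570/L8 heads and hll at 12.8 to 29.1 cpm. Of the 15, 9 were abundant enough to be tested in the second comparison, where 7 were called lower again. Of these 7, Yp1, Yp2 and Yp3 chose the comparison and asRNA:CR45601 cannot be separated from Yp1, which leaves Obp99a and the overlapping CG31465 and asRNA:CR45046. hll and dy were not called there.

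Of the 15 largest rises, 2 were the roX RNAs and 2 were transposons, 1731 and TART-C. mthl8, a Methuselah-like receptor gene, was at 45.5, 51.4 and 44.5 cpm in heads without EEO and had a single fragment in the 3 mod07570/+ libraries. The ratio of 1896 has a counting interval of 340.0 to 74921 (95%, exact), which covers counting error only. In mod07570/L8 heads mthl8 was at 19.2 to 23.8 cpm, and it was also called higher in the second comparison (log2 fold change 0.72, edgeR adjusted p = 0.016). CG30054, with synonyms of a G protein alpha subunit, was at 9.19 to 18.7 cpm in heads without EEO against 0.142 to 0.675 cpm, and 12.3 to 19.7 cpm in mod07570/L8 heads. The sequence listed as NM_144443_1 was at least 147-fold higher, against a floor of 3 counts over the 3 mod07570/+ libraries. It is a second copy of a CG18858 transcript in the tables, and CG18858 itself had a log2 fold change of -0.49 ± 0.10 (SE, edgeR adjusted p = 0.017), so the division of fragments between these copies is uncertain. Under total-count scaling CG18858 was not called (edgeR adjusted p = 0.15).

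The other rises were the immune genes BomBc1 and AttC, the oxidoreductase gene fiz, snsl, CG34327, CG10560, CG6421 and CG11854. fiz was at 14.9, 9.53 and 8.24 cpm in heads without EEO against 0.921, 0.744 and 0.312 cpm (log2 fold change 3.83 ± 0.44 SE, edgeR adjusted p = 0.0032) and snsl at 14.3, 19.0 and 21.0 cpm against 1.70, 1.34 and 1.56 cpm (log2 fold change 3.37 ± 0.24 SE, edgeR adjusted p = 0.0008). Both were also higher in the second comparison, by 3.29 and 2.78 on the log2 scale (edgeR adjusted p = 0.0097 and 0.00086). CG34327, on the X chromosome, was at 35.3 to 74.9 cpm against 0.425, 0.446 and 11.9 cpm (edgeR adjusted p = 0.047). Its call was lost with effective counts, with a replicate block and without any library but mod07570/+ replicate 3 (edgeR adjusted p = 0.055 to 0.15). Of the 14 that could be tested in the second comparison, 10 were higher there too, and CG30054, AttC, TART-C and CG10560 were not called.

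Heads with EEO against mod07570/L8 heads asked how far the differences held in libraries of their own, with the same reading of the sexes but another mod genotype and with outgrowths. Of 10038 genes, 1142 (11.4%) were higher and 940 (9.36%) lower. Of the 1520 genes called higher in heads without EEO and tested again, 611 (40.2%) were called higher in heads with EEO and 9 lower, against 11.3% called higher among the 9878 genes tested in both. Of 924 genes called lower, 457 (49.5%) were called lower again and 11 higher, against 9.47%. These genes were 53.5% and 48.6% of the calls of the second comparison. Signs were shared by 92.3% of the higher and 90.5% of the lower genes, where 54.3% of all genes tested in both were higher and 45.7% lower. Leaving out heads with EEO replicate 1, whose roX1 was at 666 cpm, raised the second comparison's calls to 1835 higher and 1905 lower, and leaving out mod07570/L8 replicate 1 lowered them to 241 and 293. Without heads with EEO replicate 2 they were 630.0 and 558, and without mod07570/L8 replicate 2 or 3 they were 299 and 332 or 426 and 413.

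**Figure D3:**
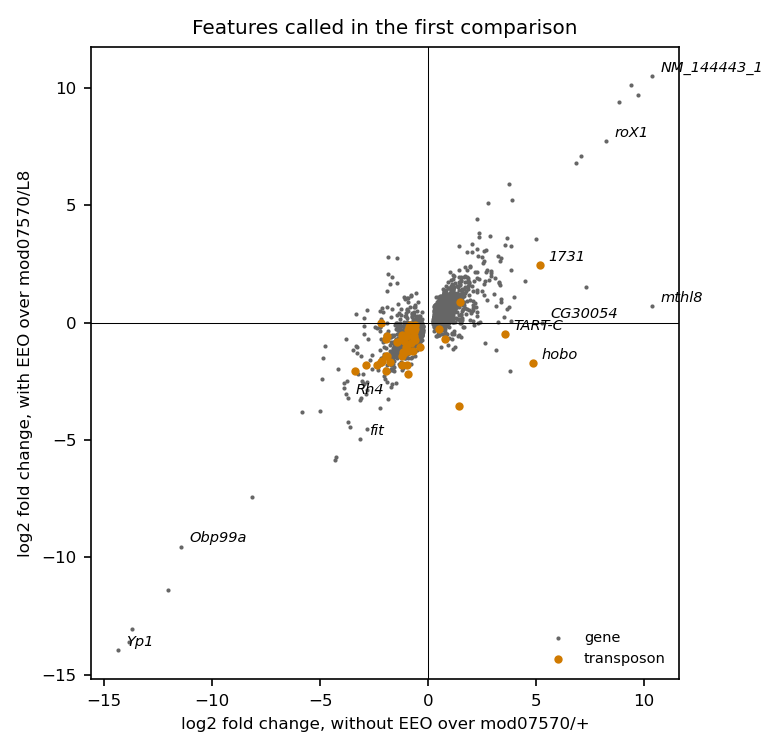
Log2 fold changes of heads with EEO over mod07570/L8 heads (vertical) against heads without EEO over mod07570/+ heads (horizontal), for features called in the horizontal comparison. Most genes lie on the rising diagonal, while mthl8, CG30054, TART-C and hobo lie far to the right at vertical values of 0.72, 0.01, -0.48 and -1.71.

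Genes of cuticular hydrocarbon synthesis, which make the contact pheromones of flies, were partly read in heads. Of 8, 6 were tested, 1 was higher and 3 lower, Cyp4g1 among the lower, against 15.2% and 9.69% of all genes. FASN3, a fatty acid synthase gene, was at 2.35, 1.32 and 2.03 cpm in heads without EEO against 7.79, 13.2 and 10.5 cpm in mod07570/+ heads (log2 fold change -2.62 ± 0.26 SE, edgeR adjusted p = 0.0021). FASN2 fell by 2.07 on the log2 scale (edgeR adjusted p = 0.014), and Cpr, the reductase that P450 enzymes depend on, rose by 0.51 (edgeR adjusted p = 0.0057). The desaturase gene Desat1 was at 2728 to 3206 cpm against 3367 to 4846 cpm and missed the threshold (edgeR adjusted p = 0.055). eloF, the elongase of female pheromones, was at most at 0.521 cpm and was not tested. Contact pheromone receptors and CheA and CheB genes were mostly too rare: of 27, 5 were tested and only CheA87a was called, at 0.132 to 0.402 cpm against 1.19 to 2.11 cpm (log2 fold change -2.78 ± 0.47 SE, edgeR adjusted p = 0.0094).

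Odorant-binding proteins, secreted into the fluid around olfactory and taste neurons, mostly rose. Of 29 tested of 50, 16 were higher, 5 were lower and 8 were not called, where 15.2% and 9.69% of all genes were higher and lower. The median log2 fold change was 0.75 against 0.02 over all genes. Total-count scaling called 20 higher and 5 lower. Without mod07570/+ replicate 2 the counts were 14 and 6, and without heads without EEO replicate 1, 2 or 3 only 4 of the 29 were higher. Obp83a, which is expressed in olfactory hairs, was at 577, 549.7 and 559.6 cpm in heads without EEO against 228, 182 and 239.9 cpm (log2 fold change 1.19 ± 0.16 SE, edgeR adjusted p = 0.0051). Obp69a was at 39.1, 31.8 and 34.1 cpm against 9.85, 10.8 and 10.3 cpm (log2 fold change 1.58 ± 0.12 SE, edgeR adjusted p = 0.00094). The groups overlapped in neither gene. Obp56e went the other way, at 51.9 to 96.2 cpm against 124 to 196 cpm (log2 fold change -1.49 ± 0.31 SE, edgeR adjusted p = 0.018).

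The eye genes changed most at the ultraviolet opsins. Of 13 phototransduction genes, 5 were lower, 1 was higher and 7 were not called, where 9.69% and 15.2% of all genes were lower and higher. Rh4, an opsin of R7 photoreceptors, was at 35.8, 51.0 and 49.2 cpm in heads without EEO against 489, 515 and 591 cpm in mod07570/+ heads (log2 fold change -3.73 ± 0.17 SE, edgeR adjusted p = 0.00022). Rh3, the other R7 opsin, was at 129.6, 145 and 147 cpm against 347, 359.7 and 457 cpm (log2 fold change -1.64 ± 0.13 SE, edgeR adjusted p = 0.00094). ninaE, the opsin of the outer photoreceptors, was at 8775, 9161 and 9963 cpm against 15488, 16345 and 16037 cpm (log2 fold change -0.96 ± 0.14 SE, edgeR adjusted p = 0.006).

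Of the R8 opsins, Rh6 was at 313, 319 and 309.6 cpm against 176, 181 and 191 cpm (log2 fold change 0.60 ± 0.09 SE, edgeR adjusted p = 0.0062), and Rh5 at 158 to 198 cpm against 188 to 209 cpm (log2 fold change -0.36 ± 0.12 SE, edgeR adjusted p = 0.075). The arrestin genes Arr2 and Arr1 fell by 0.65 and 0.53 on the log2 scale (edgeR adjusted p = 0.015 and 0.037), and the sign of Arr1 turned with unique counts (log2 fold change 0.20, edgeR adjusted p = 0.53). Without mod07570/+ replicate 2, 11 of the 13 were called lower, and without heads without EEO replicate 1, 2 or 3 only 2, 2 or 3 were. In the second comparison 11 of 13 were lower, where 9.36% of all genes were. Rh4 was at 52.4 to 96.7 cpm in heads with EEO against 585 to 619 cpm in mod07570/L8 heads. Both groups with low Rh4 came from the KrIf-1 cross, and they were also the groups with male roX levels. In bulk heads, fewer R7 cells and less opsin RNA per cell cannot be told apart.

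Eye pigment genes went both ways, with 3 higher, 2 lower and 4 not called of 9 tested, against 15.2% higher and 9.69% lower of all genes. Without heads without EEO replicate 1, 2 or 3 none of the 9 was called in either direction, and in the second comparison none was higher and 1 was lower. With all 6 libraries the pigment transporter genes rose: brown (bw) was at 75 to 86.6 cpm against 30.5 to 46.0 cpm, white (w) at 32.6 to 37.1 cpm against 14.9 to 21.1 cpm and scarlet (st) at 28.0 to 31.8 cpm against 14.1 to 19.1 cpm. Their log2 fold changes were 0.94, 0.74 and 0.68 (edgeR adjusted p = 0.012, 0.0092 and 0.023). P-element insertions commonly carry eye colour markers, and the study does not state which marker mod07570 carries. Whether reads of w or of rosy came from the native genes was not tested. cardinal (cd), of ommochrome synthesis, and rosy (ry), of pteridine metabolism, fell by 1.09 and 0.61 on the log2 scale (edgeR adjusted p = 0.011 and 0.027). Of 6 neuron and glia markers, 2 were higher, the glial gene repo by 0.45 and the synaptic gene brp by 0.42 on the log2 scale (edgeR adjusted p = 0.014 and 0.041), and neither call held without heads without EEO replicate 1, 2 or 3.

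Of 16 antimicrobial and Imd pathway genes tested, 8 were higher in heads without EEO, 1 was lower and 7 were not called, where 15.2% and 9.69% of all genes were higher and lower. The median log2 fold change was 2.29. AttC, an attacin, was at 172, 332 and 318 cpm against 28.8, 9.97 and 17.1 cpm (log2 fold change 3.65 ± 0.50 SE, edgeR adjusted p = 0.0053). AttB was at 36.9, 64.1 and 76.0 cpm against 11.2, 10.6 and 9.67 cpm, and the cecropin gene CecA1 at 3.85 to 4.89 cpm against 0.0780 to 0.425 cpm. The receptor gene PGRP-SD rose by 1.64 on the log2 scale (edgeR adjusted p = 0.0046). pirk, which encodes an inhibitor of the Imd pathway, was the lower member, at 4.71 to 6.37 cpm against 9.13 to 25.3 cpm (log2 fold change -1.76 ± 0.45 SE, edgeR adjusted p = 0.031). BomBc1, a bomanin of the Toll pathway, was at 259.9, 637 and 664 cpm against 6.09, 84.3 and 11.5 cpm (log2 fold change 3.85 ± 0.96 SE, edgeR adjusted p = 0.029). Its call was lost without any library but mod07570/+ replicate 2 (edgeR adjusted p = 0.055 to 0.099).

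In the second comparison only 2 of 17 antimicrobial genes were higher, where 11.4% of all genes were. The libraries within its groups spread widely, with AttC at 13.1 to 713 cpm in heads with EEO and 56.2 to 235 cpm in mod07570/L8 heads. Without heads without EEO replicate 1, 2 or 3, 4, 6 or 4 antimicrobial genes were called higher. The Turandot stress peptides split. TotX was at 115, 114 and 101 cpm against 14.4, 6.40 and 8.27 cpm (log2 fold change 3.29 ± 0.35 SE, edgeR adjusted p = 0.0026), whereas TotM was at 5.90, 5.80 and 2.47 cpm against 22.7, 118 and 94.9 cpm (log2 fold change -4.19 ± 0.62 SE, edgeR adjusted p = 0.0068). Of 16 heat shock genes tested, 1 was higher and none was lower, where 15.2% and 9.69% of all genes were. The higher gene was Hsp67Ba, at 30.0 to 31.9 cpm against 11.9 to 15.4 cpm. In heads with EEO against mod07570/L8 heads 15 of 17 were higher, where 11.4% of all genes were. The difference between the comparisons was not tested.

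Cytosolic ribosomal protein genes moved together by a small amount. Of 80 tested of 88, 73 were lower, none was higher and 7 were not called. Of all genes 9.69% were lower and 15.2% higher. The log2 fold changes of the 80 ran from -1.02 to 0.02, with a median of -0.69. RpS20 was at 299.9, 289 and 304 cpm against 564, 579 and 446 cpm (log2 fold change -1.02 ± 0.14 SE, edgeR adjusted p = 0.0059). Their summed share of counts was 4.56, 4.50 and 4.55% in heads without EEO against 6.72, 6.94 and 5.75% in mod07570/+ heads. Under total-count scaling 66 were lower with a median of -0.51, with DESeq2 78, and with unique counts 41 were lower and 1 was higher. Without heads without EEO replicate 1, 2 or 3, 11, 19 or 18 were called lower, with medians of -0.76, -0.75 and -0.75. In those fits 299 of 10323, 365 of 10344 or 348 of 10328 genes and transposons were lower. In the second comparison 43 of 80 were lower, where 9.36% of all genes were. Without mod07570/+ replicate 2, which held germline RNA, 78 were called lower, where 1638 of 10306 genes and transposons were.

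**Figure D4:**
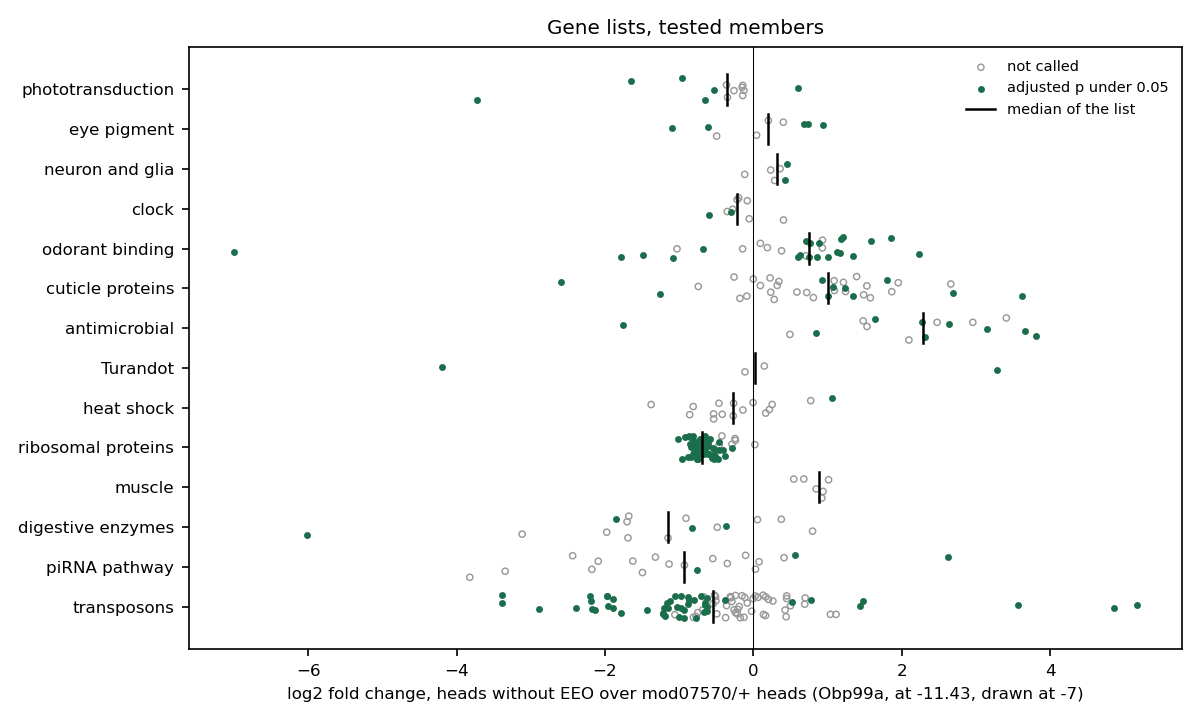
Log2 fold changes of heads without EEO over mod07570/+ heads for the tested members of 13 gene lists and for transposons, with filled points at an adjusted p under 0.05 and a bar at each list's median. The ribosomal protein genes form a narrow cluster around -0.69, and the odorant-binding, cuticle and antimicrobial lists lie mostly above 0.

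Muscle genes were not called in the 6 libraries, and a single library decided this. Mhc, the muscle myosin, was at 4394, 4751 and 3955 cpm in heads without EEO against 1355, 1304 and 3129 cpm in mod07570/+ heads (log2 fold change 1.01 ± 0.34 SE, edgeR adjusted p = 0.069). Mlc2 was at 1967, 1996 and 1630.0 cpm against 489, 528 and 1601 cpm. The 6 muscle genes summed to 7591 to 9086 cpm against 2643, 2703 and 6552 cpm. Mhc was called under total-count scaling (edgeR adjusted p = 0.034). Without mod07570/+ replicate 3 all 6 were called higher, with a median log2 fold change of 1.43, where 1843 of 10298 genes and transposons were higher. In the second comparison 5 of 6 were higher, where 11.4% of all genes were. Cuticle protein genes moved with the same library: of 35 tested of 117, 8 were higher and 2 lower, against 15.2% and 9.69% of all genes. Without mod07570/+ replicate 3, 22 of 36 were higher, where 1843 of 10298 genes and transposons were. Cpr65Au was at 185, 199.9 and 191 cpm against 70.3, 53.1 and 76.8 cpm (log2 fold change 1.34 ± 0.18 SE, edgeR adjusted p = 0.0051), and Ccp84Ag at 1.07 to 2.35 cpm against 8.43 to 9.28 cpm (log2 fold change -2.59 ± 0.30 SE, edgeR adjusted p = 0.0035). The part of muscle content in the other differences was not tested.

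Of 16 neuropeptide and insulin-like peptide genes, 3 were higher and 1 was lower, shares near those of all genes (15.2% and 9.69%). Without heads without EEO replicate 1, 2 or 3, 2, 1 or 1 were higher, and under total-count scaling 7 were. The adipokinetic hormone gene Akh was at 24.5, 36.9 and 27.5 cpm against 8.22, 12.0 and 15.1 cpm (log2 fold change 1.17 ± 0.23 SE, edgeR adjusted p = 0.014). Dh31, a diuretic hormone gene, was at 58.2 to 61.4 cpm against 27.2 to 36.3 cpm (log2 fold change 0.75 ± 0.10 SE, edgeR adjusted p = 0.0048). Ilp2 rose by 0.60 and Ilp6, an insulin-like peptide of the fat body, fell by 0.80 on the log2 scale (edgeR adjusted p = 0.025 and 0.0064). Among 9 clock genes cyc and cwo were lower, by no more than 0.60 on the log2 scale, where 9.69% of all genes were lower. Both lost their calls under total-count scaling and without heads without EEO replicate 1, 2 or 3. Without mod07570/+ replicate 2, 6 of the 9 were lower, where 1638 of 10306 genes and transposons were.

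The X chromosome as a whole differed little between the groups. The median log2 fold change was -0.03 over 1659 X-linked genes and 0.03 over 8199 genes of the large autosomal arms, and 70.3% of the X-linked genes changed by less than 0.5 on the log2 scale. Of the X-linked genes 14.2% were higher and 12.0% lower, against 14.1 to 17.3% and 8.75 to 9.63% on the autosomal arms. X-linked genes held 16.4, 16.6 and 16.6% of gene counts in heads without EEO and 32.0, 23.9 and 24.7% in mod07570/+ heads. These shares are a description, because they hold the X-linked yolk protein RNAs that chose the comparison. Without Yp1, Yp2 and Yp3 they were 16.4 to 16.6% and 17.5 to 19.0%, with the RNA antisense to Yp1, at 12316 to 25866 cpm in mod07570/+ heads, still counted. The 38 Y-linked genes summed to at most 2.34 cpm in any of the 6 libraries, and none was tested.

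Markers of gonads were looked for because they can stand in for sex. Of 18 testis genes 2 were tested, and only bol was called, at 196 to 202 cpm against 102 to 145 cpm (log2 fold change 0.55 ± 0.11 SE, edgeR adjusted p = 0.014). Without it and twe, the others, ProtA and ProtB among them, were at most at 1.37 cpm. The 12 accessory gland genes summed to at most 0.595 cpm in any library. Of 13 follicle cell genes 2 were tested, Cp7Fa and Cp7Fb, both near 1 cpm and lower at 0.469 to 0.925 cpm against 1.12 to 1.56 cpm. All 13 summed to 2.48, 10.4 and 2.91 cpm in heads without EEO and to 3.75, 4.76 and 4.91 cpm in mod07570/+ heads. With no filter on low counts none of 12 was called, and their median log2 fold change was 1.06. Of 7 ovarian germline genes 3 were tested and exu was lower, at 0.861 to 2.08 cpm against 8.64, 25.7 and 5.46 cpm (log2 fold change -3.26 ± 0.62 SE, edgeR adjusted p = 0.013). The list summed to 27.0 to 31.4 cpm in heads without EEO and to 25.9, 353 and 33.6 cpm in mod07570/+ heads.

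Genes of the piRNA pathway, which silences transposons in gonads, moved with the germline RNA of mod07570/+ replicate 2. piwi, the nuclear Argonaute of the pathway, was at 2.01, 1.89 and 1.67 cpm in heads without EEO and at 0.212, 28.1 and 0.546 cpm in mod07570/+ heads. Its log2 fold change of -2.44 ± 1.45 (SE, edgeR adjusted p = 0.25) became 2.00 without that library (edgeR adjusted p = 0.017). AGO3, its cytoplasmic relative, was at 0.689 to 1.19 cpm against 1.42, 35.0 and 2.73 cpm. Of 19 piRNA genes tested, 2 were higher and 1 was lower with all 6 libraries, where 15.2% and 9.69% of all genes were. Without replicate 2, 6 were higher and 3 lower, where 1498 and 1638 of 10306 genes and transposons were. The median log2 fold change went from -0.93 to 0.19. Of the siRNA pathway, which acts in somatic cells, 2 of 5 genes were lower, where 9.69% of all genes were. Dcr-2 was at 62.2 to 64.0 cpm against 74.3 to 99.0 cpm (log2 fold change -0.61 ± 0.08 SE, edgeR adjusted p = 0.0041), and Hen1 was lower by 1.04 on the log2 scale (edgeR adjusted p = 0.013).

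Of 15 digestive enzyme genes tested of 37, none was higher and 4 were lower, where 9.69% of all genes were lower. Total-count scaling called 1 higher and 2 lower, and without heads without EEO replicate 1, 2 or 3, 1, 4 or 2 of 16 were lower. The trypsin gene epsilonTry was at most at 0.201 cpm in heads without EEO and at 2.27, 16.1 and 5.77 cpm in mod07570/+ heads, and it was listed at 0 in both other head groups. The amylase gene Amy-p was at 158, 83.9 and 324 cpm against 381, 769 and 691 cpm (log2 fold change -1.85 ± 0.48 SE, edgeR adjusted p = 0.032), and in mod07570/L8 heads at 15.9 to 27.6 cpm. Its call was lost without mod07570/+ replicate 2 (edgeR adjusted p = 0.055).

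Transposon RNA was lower in heads without EEO. It took 0.502, 0.527 and 0.527% of counts there and 0.939, 1.16 and 1.14% in mod07570/+ heads, a difference of -0.56 percentage points (two-sided exact permutation test, p = 0.1, the smallest p that 3 against 3 allows). Of 95 transposons tested, 42 (44.2%) were lower and 7 (7.37%) were higher, with a median log2 fold change of -0.55. LTR retrotransposons made up 26 of the lower and 4 of the higher of 51 tested, LINE-like elements 13 and 2 of 29, and DNA transposons 3 and 1 of 15. Without mod07570/+ replicate 2, 56 were lower, and under total-count scaling 32 were lower and 10 higher. Leaving out heads without EEO replicate 1, 2 or 3 left 24, 26 or 23 lower, and 2, 5 or 4 higher.

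By the ratio of mean cpm, 3 of 96 transposons (3.12%) were over 5-fold higher and 3 (3.12%) over 5-fold lower. The LTR element 1731 was at 111, 109 and 101 cpm in heads without EEO against 2.34, 2.75 and 2.81 cpm in mod07570/+ heads (log2 fold change 5.17 ± 0.10 SE, edgeR adjusted p = 1.6e-06). TART-C, a telomeric element, was at 171, 165 and 193 cpm against 11.4, 14.1 and 14.2 cpm (log2 fold change 3.57 ± 0.09 SE, edgeR adjusted p = 1.2e-05). The DNA transposon hobo was at 4.36, 5.45 and 2.86 cpm, and of the mod07570/+ libraries replicate 2 alone had any, at 0.372 cpm (log2 fold change 4.85 ± 0.81 SE, edgeR adjusted p = 0.0095). In mod07570/L8 heads these elements were above their mod07570/+ levels, with 1731 at 22.7 to 29.5 cpm, TART-C at 169 to 174 cpm and hobo at 13.5 to 17.5 cpm. For 1731 this was still below every library of heads without EEO.

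Among the falls, copia was the most abundant, at 653, 838 and 649 cpm in heads without EEO against 3725, 5783 and 4721 cpm in mod07570/+ heads (log2 fold change -2.89 ± 0.17 SE, edgeR adjusted p = 0.00044). gypsy was at 15.6, 21.3 and 11.1 cpm against 255, 64.1 and 104 cpm (log2 fold change -3.39 ± 0.62 SE, edgeR adjusted p = 0.012), and Doc4-element, with at most 1.72 cpm, was the third over 5-fold. In mod07570/L8 heads copia was at 1917 to 2121 cpm and gypsy at 39.3 to 44.4 cpm, between the levels of the mod07570/+ heads and of the cross. diver was at 9.30 to 13.4 cpm against 40.2 to 50.6 cpm, and at 13.2 to 15.1 cpm in mod07570/L8 heads. The telomeric elements other than TART-C fell, TART-A by 2.39, HeT-A by 1.22, TART-B by 1.02 and TAHRE by 0.98 on the log2 scale (edgeR adjusted p = 0.001, 0.0019, 0.0013 and 0.0022). TART-A, TART-B and TART-C share sequence, and eXpress divides ambiguous fragments among them.

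**Figure D5:**
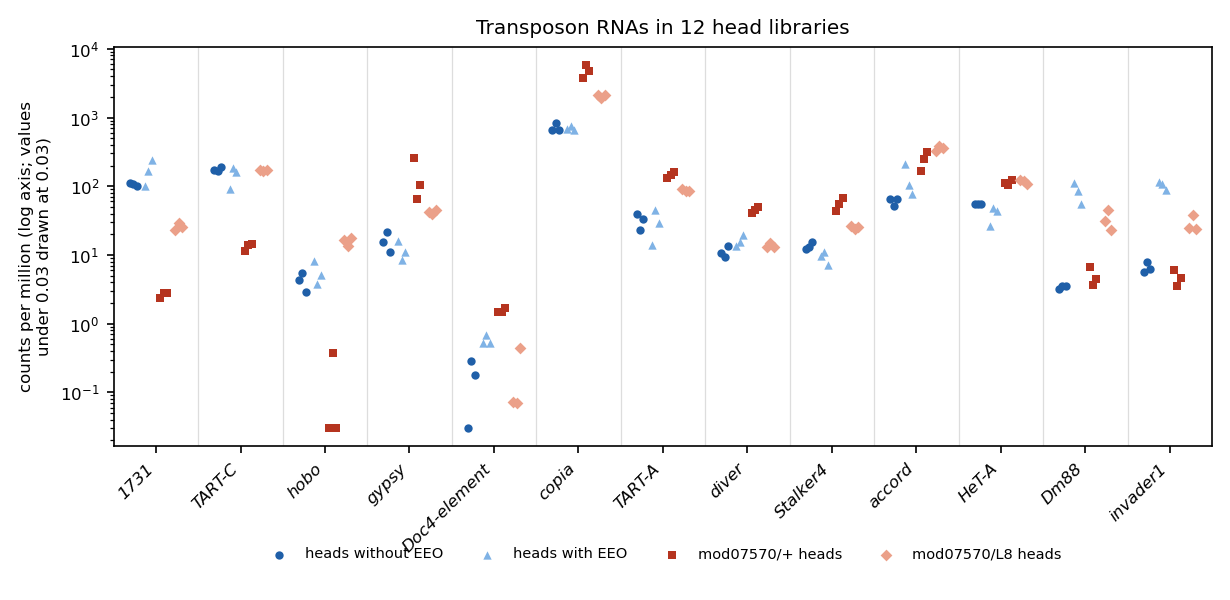
Counts scaled to a common total (cpm) on a log axis for the transposons with the largest changes and HeT-A, Dm88 and invader1, with a point for each of the 12 head libraries. 1731, TART-C and hobo are lowest in mod07570/+ heads, and copia and gypsy are highest in mod07570/+ heads.

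In the second comparison 43 of 94 transposons (45.7%) were lower and 3 (3.19%) higher. Of the 40 lower transposons that could be tested again, 29 (72.5%) were called lower and all 40 had the same sign, against 46.2% called lower and 83.9% with a negative sign among the 93 tested in both. Of the 7 higher transposons, 1731 was called higher again, with 100.1 to 239 cpm in heads with EEO, and 3 were called lower, hobo, springer and G6. springer was at 191 to 252 cpm in heads without EEO against 107 to 119 cpm in mod07570/+ heads, but at 199 to 299 cpm in heads with EEO against 329 to 346 cpm in mod07570/L8 heads. G6 was at 3.79 to 10.6 cpm against 1.98 to 3.20 cpm, and at 1.66 to 5.60 cpm against 34.0 to 46.0 cpm. Dm88 and invader1, at 3.15 to 3.56 and 5.71 to 7.78 cpm in heads without EEO, were not called (log2 fold changes -0.75 and 0.26, edgeR adjusted p = 0.13 and 0.55). Differences in strain background were not tested.

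Krüppel (Kr), the zinc finger factor with the KrIf-1 allele in the cross, was at 4.43, 6.14 and 5.82 cpm in heads without EEO against 1.98, 2.31 and 2.81 cpm in mod07570/+ heads (log2 fold change 1.04 ± 0.22 SE, edgeR adjusted p = 0.019). mod was at 49.8, 39.7 and 37.1 cpm against 62.6, 122 and 58.7 cpm (log2 fold change -1.10 ± 0.26 SE, edgeR adjusted p = 0.024). Without heads without EEO replicate 1, 2 or 3 neither gene was called (edgeR adjusted p = 0.055 to 0.098 for Kr and 0.066 to 0.093 for mod). The call of Kr was also lost with a replicate block (edgeR adjusted p = 0.0503) and with unique counts (edgeR adjusted p = 0.12). The library with the highest mod level is the one with germline RNA, and without it the log2 fold change was -0.84 (edgeR adjusted p = 0.015). In mod07570/L8 heads mod was at 18.2 to 20.0 cpm, lower than in every library of the other head groups.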

How the data were processed

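The authors sequenced poly(A) RNA in read pairs, used Bowtie 2 (listed as Bowtie in the processing notes) to map reads to transposon consensus sequences together with RefSeq transcripts (build dm3), and ran eXpress on the alignments (versions are not given in the sources used here). The deposited estimated counts (expected counts) and effective counts are eXpress estimates in which a fragment with several matches is shared out. The unique counts deposited with them are fragments that map to a single sequence. Summed to genes, they leave out fragments shared by transcripts of the same gene. Ovary tables and peak lists were not used here.

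Of 34437 transcripts 32852 matched a RefSeq Release 6 symbol and were summed to genes. Transcripts without a symbol held 0.362 to 0.442% of counts. The 126 transposon sequences stayed separate. Estimated counts were rounded, and edgeR 4.0.16 (TMM, quasi-likelihood test) in R 4.3.3 was run on features that reached 1 cpm in 3 or more of 6 libraries (in 2 or more where a library was left out), with Benjamini-Hochberg adjustment over all features and a threshold of 0.05. The transposon share was compared by an exact permutation test in scipy 1.17.1. Alternatives were unique and effective counts, total-count scaling, other TMM references, DESeq2 1.42.0, other filters, a replicate block, 12 libraries in a single fit, transcripts as listed, a 2-fold threshold and leaving out each library. List counts without mod07570/+ replicate 2 and under total-count scaling were chosen after seeing the data. On data simulated for this comparison, edgeR recovered 67 of 100 genes changed 2-fold and 100 of 100 changed 4-fold, and called 6 unchanged genes among 10105. The simulation gave all genes the same dispersion in both groups and left out the yolk protein RNA difference. The real groups spread unequally, with a transposon share SD of 0.0142 in heads without EEO and 0.122 in mod07570/+ heads. These rates need not hold for the real data.

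The comparison, lists and members were chosen with earlier results of these data known. Named are list members, mod, Kr and piwi, the 15 features per direction with the largest log2 fold change among those called without overlap and with at least 10 cpm in the higher group, the 10 called transposons with the largest change, and transposons over 5-fold, which needed 1 cpm in either group. springer, G6, TART-B, HeT-A, TAHRE, Dm88, invader1 and CG18858 were named after their values were seen.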

Additional observations from a re-analysis of the deposited data

How the results depend on the processing

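The numbers of calls moved, and so did the share of them that were higher. With unique counts 48.6% of all calls were higher in heads without EEO, against 60.1% in the main fit. Leaving out 1 library of heads without EEO gave 47.2 to 49.7%. For heads without EEO against mod07570/+ heads, unique counts gave 694 genes higher, total-count scaling 540 lower and DESeq2 1512 lower, and requiring a change of over 2-fold left 327 genes higher, 336 lower and 25 transposons lower. With transcripts as listed 4 transposons were higher. Leaving out 1 library at a time gave 293 to 1837 genes higher and 275 to 1582 lower, and 2 to 7 transposons higher and 23 to 56 lower. For heads with EEO against mod07570/L8 heads, total-count scaling gave 3228 genes higher and 478 lower and 8 transposons higher. There, leaving out 1 library gave 241 to 1835 genes higher, 293 to 1905 lower, 3 to 5 transposons higher and 20 to 47 lower.

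The replicate numbers did not pair the libraries: deviations of same-numbered libraries correlated at 0.103, 0.0415 and -0.103 in the first comparison and at -0.161, 0.00634 and -0.178 in the second. A replicate block gave 953 genes higher, 622 lower and 4 transposons higher in the first, and 537 genes higher and 476 lower in the second.

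Of 166 called genes and transposons named by rule or list, 162 kept their sign under every alternative that gave a value for them and 74 also kept their call, and 290 of 393 lost calls came from leaving out a library. These features were counted because they were called in the same libraries, so the kept signs are a description and not a test. With unique counts the log2 fold changes of Arr1 (0.20), Obp19d (-0.28), Obp84a (-0.46), msl-2 (-0.41) and tra (0.066) changed sign. Without mod07570/+ replicate 2 those of piwi (2.00) and invader1 (-0.034) did, and leaving out 1 library gave -3.002 to 2.00 for piwi and -0.034 to 0.60 for invader1. The cause was not tested. The transposon share stayed lower in heads without EEO under the alternatives run, with differences from -2.11 to -0.52 percentage points. A design of 3 libraries a group limits that share to a smallest exact p of 0.1, and RNAs under 1 cpm, among them most gonad and pheromone receptor genes, could not be tested.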
